A study of Mus musculus with 6 samples.

Results

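The genes described here are 32 textbook cell cycle genes, 21 of them used in mitosis and 11 in DNA replication during S phase, followed across 6 whole-lung RNA libraries. They were chosen by name, as the rows of the count files whose Ensembl mouse identifier belongs to the listed symbols. All 32 symbols matched 1 row each, out of 35275 gene rows, and all 32 passed the filter on low counts. The lungs came from Balb/c mice that had received 250000 cells of the mammary carcinoma line 4T1, which derives from this strain, through the tail vein. In 3 lungs the injected cells were unmodified (4T1.WT, here WT) and in 3 they were labelled as PD-L1 knockouts (4T1.PD-L1 KO, here KO), so that WT and KO name the tumour cells and not the host. All lungs were taken at day 7 after perfusion with 20 mL of PBS. The age and sex of the mice, whether the KO line is a single clone, and lungs free of tumour cells are not described in the sources at hand.

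A dividing cell first loads the MCM helicase onto replication origins, fires it with CDC45 and the GINS complex, and copies its DNA with the sliding clamp PCNA and a supply of deoxynucleotides. It then enters mitosis under CDK1 with cyclins A and B, builds a spindle, holds anaphase until every chromosome is attached, and degrades the cyclins through the anaphase-promoting complex (APC/C). E2F factors drive the S-phase genes, and the DREAM and MuvB complexes with B-MYB and FOXM1 act on the mitotic genes through CCAAT boxes and the element called CHR (cell cycle genes homology region). In a tumour-bearing lung, tumour cells, lymphocytes, macrophages and stromal cells can all carry these transcripts. In RNA of the whole organ, a larger number of dividing cells cannot be told apart from a higher transcript content of each.

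Promoters are shown first, since the named motifs are the textbook elements of the mitotic and S-phase classes. Their bearing on the levels was not tested. RefSeq promoters (GRCm38.p6, 250 bases before to 50 after the start) were found for 26 of the 32 genes, as 28 promoters. Motifs were searched on both strands, and matches may overlap. The letters searched for CHR were TTTGAA and, as a second form, TTCGAA, and for the CCAAT box CCAAT. Those for E2F were TTCCCGC and, as further forms, TTGGCGC along with TTCGCGC and finally TTGCCGC. The 250 bases before the start are printed for 2 mitotic and 2 S-phase genes, 5′ to 3′ on the gene's strand, with all 3 kinds of motif match in capitals. They are the genome reference and not read from these mice.
Top2a (chr11:99024190-99024439, minus strand): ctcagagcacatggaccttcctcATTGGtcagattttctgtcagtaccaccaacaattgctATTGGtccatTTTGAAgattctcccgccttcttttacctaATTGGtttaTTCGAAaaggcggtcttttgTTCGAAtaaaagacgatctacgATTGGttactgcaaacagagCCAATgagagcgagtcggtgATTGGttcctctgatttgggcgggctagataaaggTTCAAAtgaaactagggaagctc
Cdk1 (chr10:69352913-69353162, minus strand): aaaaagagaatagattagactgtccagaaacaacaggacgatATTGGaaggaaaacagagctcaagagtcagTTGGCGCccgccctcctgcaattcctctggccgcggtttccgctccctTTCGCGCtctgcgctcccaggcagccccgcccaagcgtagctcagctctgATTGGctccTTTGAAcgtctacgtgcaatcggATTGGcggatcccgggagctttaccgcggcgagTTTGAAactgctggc
Mcm5 (chr8:75109259-75109508, plus strand): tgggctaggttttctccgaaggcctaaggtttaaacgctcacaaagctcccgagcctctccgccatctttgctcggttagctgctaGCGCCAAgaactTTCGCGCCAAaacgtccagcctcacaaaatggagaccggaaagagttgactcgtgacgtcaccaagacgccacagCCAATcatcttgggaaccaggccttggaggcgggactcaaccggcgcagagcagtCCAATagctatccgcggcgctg
Mcm6 (chr1:128359706-128359955, minus strand): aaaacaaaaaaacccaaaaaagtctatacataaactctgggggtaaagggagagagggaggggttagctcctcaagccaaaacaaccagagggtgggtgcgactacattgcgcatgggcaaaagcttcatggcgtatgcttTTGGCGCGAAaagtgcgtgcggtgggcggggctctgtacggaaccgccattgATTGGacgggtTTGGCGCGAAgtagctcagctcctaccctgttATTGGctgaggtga

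Of the 17 mitotic genes with a promoter, 13 had a CHR match, as did 3 of the 9 S-phase genes. For E2F the classes lay the other way, with a match in 3 of 17 mitotic and 5 of 9 S-phase genes. CCAAT boxes were common in both classes, in 15 of 17 and 8 of 9 genes. Counted over promoters of this length, a CHR match stood in 77.8% of the 18 mitotic and 30.0% of the 10 S-phase promoters, against 14.1% of 14500 promoters of tested genes and 19.2% of all 32851. An E2F match stood in 16.7% and 60.0%, against 15.6% of tested and 9.57% of all promoters, and a CCAAT box in 88.9% and 90.0%, against 36.6% and 37.4%. A match is a description of letters in this window, not a site shown to be bound. In the 300 bases of Top2a stood 4 CHR and 6 CCAAT matches and none for E2F, whereas Mcm6 had 5 E2F and 2 CCAAT matches and none for CHR.

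**Figure D1:**
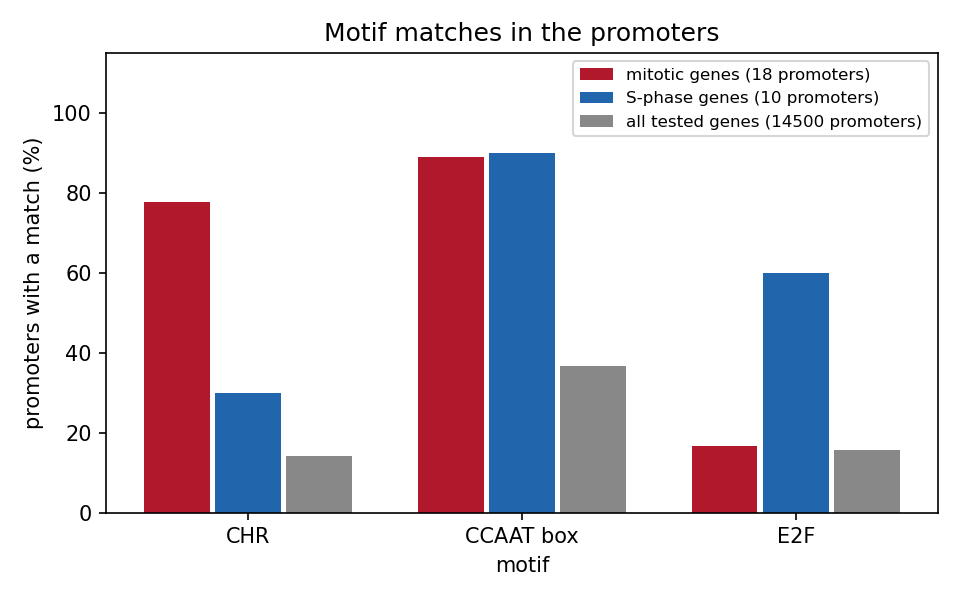
Share of promoters (vertical axis, %) with at least 1 match of the CHR, CCAAT box or E2F letters, for mitotic genes (red, 18 promoters), S-phase genes (blue, 10 promoters) and all tested genes (grey, 14500 promoters). The CHR bar is highest for mitotic genes at 77.8% and the E2F bar for S-phase genes at 60.0%, while the CCAAT bars of both classes are near 90.0%.

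The libraries held 14711459 to 16932114 counts, so that 3 counts, the limit that a count of 0 allows, stand for 0.176 to 0.206 CPM (counts scaled to a common TMM-adjusted library size), for counting error only. The 2 groups were compared as KO minus WT with edgeR's quasi-likelihood test, adjusted by Benjamini-Hochberg over 15191 genes. The labels do not say that each library is 1 animal, and the p-values then reflect the spread of these samples alone, which may be technical. The lung markers Sftpc (7837 ± 481 and 7774 ± 1062 CPM in WT and KO, SD, n = 3 per group) and Pecam1 (1204 ± 97.5 and 1174 ± 139 CPM) were abundant in both groups. Cd274, which encodes PD-L1, had 910, 912 and 1132 counts in the lungs labelled WT and 1514, 3013 and 4929 in those labelled KO, the direction opposite to the tumour cells' label. Host cells keep the gene, so it does not check the labels, and every direction below rests on them.

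In the lungs labelled KO, 31 of the 32 cell cycle genes had a higher fitted level than in those labelled WT, but no member passed the test. The median log2 difference was 0.71 over the 32 genes, 0.86 over the mitotic genes and 0.41 over the S-phase genes, against 0.01 over all tested genes, of which 51.0% were on the higher side. By edgeR's quasi-likelihood test 0 of 32 members were called higher and 0 lower, where 1.12% of all genes were called higher, 0.336% lower and 1.45% in either direction. The lowest adjusted p among the members was 0.0829, for Top2a. At an unadjusted p under 0.05, 18 of 32 members were higher and 0 lower, against 8.29% and 6.33% of all genes. Every KO value exceeded every WT value in 13 of 32 members (7 mitotic and 6 S-phase), against 10.3% of all genes, and below them in 0, against 9.4%. The 32 genes are read in the same 6 libraries and are not independent of each other. DESeq2 called 5 members higher, namely Top2a, Ccna2, Cdk1, Mcm5 and Gins2, against 2.42% of all genes, and limma-voom called 0, against 1.01%.

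**Figure D2:**
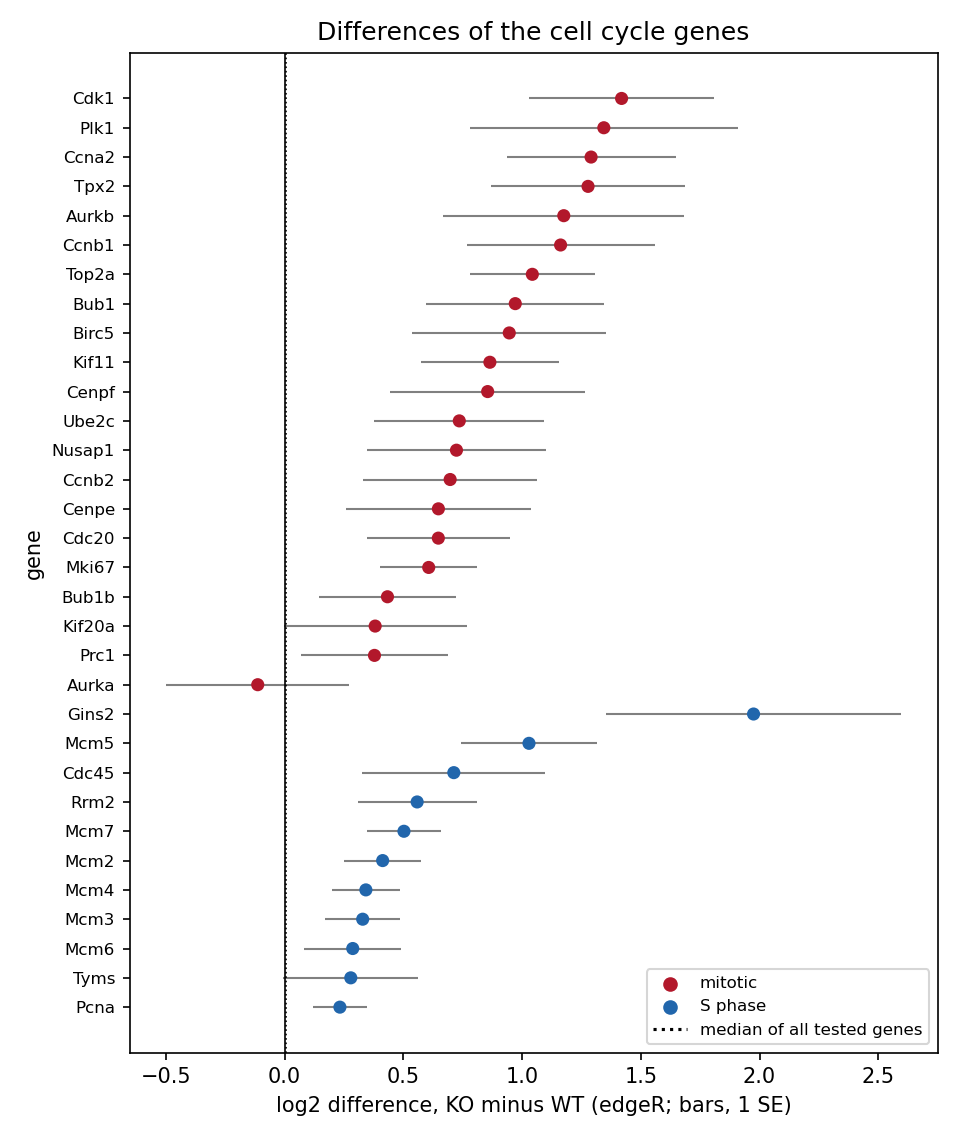
Log2 difference of each of the 32 genes between KO and WT lungs (horizontal axis, edgeR, bars 1 SE, 3 libraries per group), mitotic genes in red and S-phase genes in blue, with the dotted line at the median of all tested genes. All points except Aurka lie above 0, and the S-phase genes other than Gins2 and Mcm5 lie below 0.72.

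The members also differed widely among the KO libraries. The median member stood at 0.94, 1.11 and 0.95 times its WT mean in WT replicates 1 to 3, and at 1.19, 1.61 and 2.12 times in KO replicates 1 to 3. KO replicate 3 held the highest value of 25 of the 32 genes and KO replicate 2 of 6, while KO replicate 1 was the lowest KO library for 25. KO replicate 1 exceeded all WT libraries in 17 of 32 genes, KO replicate 2 in 25 and KO replicate 3 in 29. Among the WT lungs, replicate 2 was the highest in 21 genes. Without KO replicate 1, 5 members were called by edgeR (Mki67, Top2a, Ccna2, Cdk1 and Mcm5), against 2.58% of all genes. Leaving out WT replicate 1, 2 or 3 or KO replicate 2 or 3 gave 0 called members, where 0.178%, 0.141%, 1.2%, 0.147% and 0.232% of all genes were called higher.

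Other settings of edgeR were read against their own background. With no filter on low counts 6 members were called (Mki67, Top2a, Ccna2, Cdk1, Tpx2 and Mcm5), against 2.66% of all genes, and at a threshold of 0.1 there were 3 (Top2a, Ccna2 and Cdk1), against 2.07%. With a replicate block 2 were called (Top2a and Mcm5), against 2.03%, and with block and length and GC offset 2 (Mki67 and Top2a), against 1.53%. No member was called at a threshold of 0.01 (0.151% of all genes), with RLE, upper quartile or library size scaling (1.05%, 1.03% and 1.2%), with a minimum of 1 CPM in 3 libraries (1.19%), with robust=FALSE (1.18%) or with the offset alone (0.658%). Counting DESeq2 and the left-out libraries, Top2a was called in 6 alternatives, more than any other member, and Ccna2, Cdk1 and Mcm5 in 4 each.

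**Figure D3:**
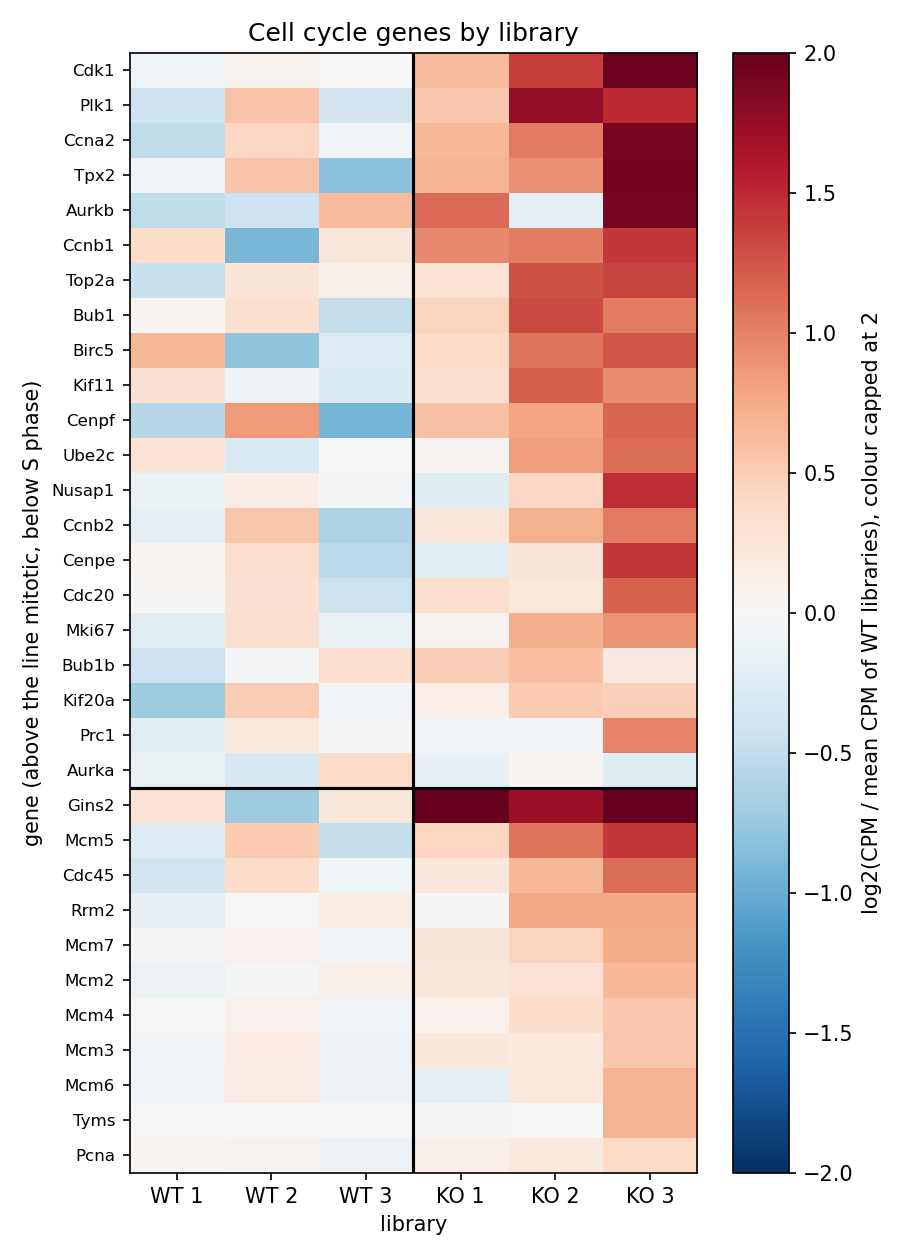
Log2 ratio of the CPM of each gene (rows, mitotic above the line and S phase below, sorted by difference) to its mean in the WT libraries, for the 6 libraries (columns), with red above and blue below the WT mean. The column of KO replicate 3 is the reddest, with the highest value of 25 of 32 genes, and the column of KO replicate 1 is the palest of the KO columns.

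CDK1 is the kinase that drives entry into mitosis, and cyclin A2, B1 and B2 are its partners. Cdk1 (chromosome 10, 69335146 to 69352938 in GRCm38) was at 2.27, 2.52 and 2.43 CPM in the WT libraries and 3.73, 6.28 and 9.32 CPM in the KO libraries. The groups did not overlap, the WT values were close together and the KO values were spread (log2 difference 1.42 ± 0.39 SE, edgeR adjusted p = 0.0950). Ccna2 (chromosome 3, 36564865 to 36572150) was at 3.02, 5.75 and 4.13 CPM in the WT libraries and 6.81, 8.84 and 16.0 CPM in KO, again without overlap (1.29 ± 0.36, edgeR adjusted p = 0.0961). Ccnb1 was at 3.43, 1.41 and 3.15 CPM in the WT libraries and 5.21, 5.50 and 7.12 CPM in KO, also without overlap (1.16 ± 0.40, edgeR adjusted p = 0.176). Ccnb2 had a log2 difference of 0.70 ± 0.37, and WT replicate 2 lay above KO replicate 1. Ccna2 overlaps Exosc9 on the opposite strand, and since the strand setting of the counting is not given, their reads cannot be told apart there. The same limit holds for Cdc20 with Elovl1 (2171 to 2810 counts per library), Kif20a with Cdc23 and Cdc45 with Ufd1. It also holds for Prc1 with Rccd1, Nusap1 with Oip5 and Ube2c with Tnnc2.

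Top2a and Mki67 were the most abundant mitotic members in CPM. Top2a (chromosome 11, 98992943 to 99024189), the topoisomerase that untangles sister chromosomes, was at 15.5, 25.2 and 22.5 CPM in the WT libraries and 25.6, 51.1 and 53.7 CPM in KO. KO replicate 1 lay just above the highest WT library, and KO replicates 2 and 3 well above it (log2 difference 1.04 ± 0.26, edgeR adjusted p = 0.0829). Mki67, which encodes the proliferation antigen Ki-67 on mitotic chromosomes, was at 28.8, 42.4 and 30.5 CPM in the WT libraries and 35.4, 56.2 and 63.5 CPM in KO. The groups overlapped, since WT replicate 2 exceeded KO replicate 1 (0.61 ± 0.21, edgeR adjusted p = 0.174).

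Among the mitotic kinases, Plk1, which acts in centrosome maturation and chromosome segregation, was at 0.893, 1.76 and 0.918 CPM in the WT libraries and 1.74, 4.06 and 3.35 CPM in KO, with WT replicate 2 just above KO replicate 1 (log2 difference 1.34 ± 0.56). Aurkb, the kinase of the chromosomal passenger complex, was at 1.72, 1.82 and 3.80 CPM in the WT libraries and 5.34, 2.16 and 9.07 CPM in KO, where replicate 2 lay inside the WT range (1.18 ± 0.51). Birc5, which encodes survivin of the same complex, had a log2 difference of 0.95 ± 0.41. Aurka, the kinase of the spindle poles, was the only member on the lower side, at 3.30, 2.93 and 4.79 CPM in the WT libraries and 3.28, 3.80 and 3.11 CPM in KO. Its groups overlapped fully, and its log2 difference of -0.11 ± 0.38 turned to 0.12 without WT replicate 3. The lowest edgeR adjusted p of these 4 genes was 0.283.

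Of the genes of the spindle checkpoint and the APC/C, Bub1, a checkpoint kinase, was at 3.02, 3.64 and 2.10 CPM in the WT libraries and 3.99, 7.26 and 5.97 CPM in KO, without overlap (log2 difference 0.97 ± 0.38). Bub1b, which encodes the APC/C inhibitor BUBR1, had a difference of 0.43 ± 0.29, Cdc20, the activator of the APC/C, of 0.65 ± 0.30, and Ube2c, its ubiquitin-conjugating enzyme, of 0.74 ± 0.36. These 3 overlapped between groups, and the lowest edgeR adjusted p of the 4 was 0.239.

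The spindle genes had log2 differences from 0.38 to 1.28. Tpx2, which nucleates spindle microtubules and activates Aurora A, was at 3.30, 5.10 and 1.97 CPM in the WT libraries and 5.59, 6.54 and 13.1 CPM in KO, without overlap (1.28 ± 0.41, edgeR adjusted p = 0.152). Kif11, the motor that pushes spindle poles apart, was at 7.21, 5.46 and 4.85 CPM in the WT libraries and 7.26, 13.4 and 11.2 CPM in KO (0.86 ± 0.29), where KO replicate 1 was barely above WT replicate 1. The kinetochore genes Cenpf and Cenpe had differences of 0.86 ± 0.41 and 0.65 ± 0.39, and Nusap1, which bundles spindle microtubules, of 0.72 ± 0.38. For Cenpe and Nusap1 KO replicate 3 stood alone, at 15.5 and 14.5 CPM, while KO replicates 1 and 2 were at 5.01 and 6.94 CPM for Cenpe and 4.44 and 6.94 CPM for Nusap1. The midzone genes Kif20a and Prc1, which act in cytokinesis, had the smallest positive differences of the class, 0.38 for both, and the Prc1 log2 fold change turned to -0.073 without KO replicate 3.

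The 6 MCM genes encode the subunits of 1 ring-shaped helicase. Mcm7 was at 27.1, 29.6 and 26.7 CPM in the WT libraries and 33.4, 38.0 and 46.8 CPM in KO, without overlap (log2 difference 0.50 ± 0.16, edgeR adjusted p = 0.137). Mcm2, Mcm3 and Mcm4 also had all KO above all WT libraries, with differences of 0.41 ± 0.16, 0.33 ± 0.16 and 0.34 ± 0.14. Mcm6 was at 22.1, 25.7 and 21.6 CPM in the WT libraries and 20.5, 26.7 and 37.5 CPM in KO, so that KO replicate 1 was the lowest of all 6 (0.29 ± 0.21). Mcm5 (chromosome 8, 75109569 to 75128439) stood apart in size, at 15.3, 26.3 and 13.0 CPM in the WT libraries and 24.6, 38.5 and 48.7 CPM in KO (1.03 ± 0.29, edgeR adjusted p = 0.111). WT replicate 2 exceeded KO replicate 1, so its groups overlapped although its difference was larger than those of the other MCM genes. Per kilobase of exon, WT levels of the 6 genes ran from 3.69 (Mcm2) to 10.3 CPM per kb (Mcm4). Mcm7 overlaps Cops6 and Ap4m1 on the opposite strand.

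CDC45 and GINS turn the loaded MCM ring into the active helicase. Gins2 (chromosome 8, 120578633 to 120589304) had the largest log2 difference of the 32 genes and the lowest level, at 0.824, 0.411 and 0.787 CPM in the WT libraries and 2.76, 2.23 and 2.98 CPM in KO (1.97 ± 0.62, edgeR adjusted p = 0.142). The groups were well separated and KO replicate 1 was not low here, but the WT values rest on 7 to 12 counts, and Gse1 lies on the opposite strand over part of the gene. Cdc45 was at 2.33, 3.87 and 2.82 CPM in the WT libraries and 3.54, 4.78 and 6.52 CPM in KO, with overlap (0.71 ± 0.39).

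Pcna, the sliding clamp, was the most abundant member on both scales, at 46.4 CPM per kb in WT. It was at 114.6, 117.0 and 102.3 CPM in the WT libraries and 119.0, 126.8 and 146.7 CPM in KO, without overlap but with the smallest positive difference of all members (0.23 ± 0.11, edgeR adjusted p = 0.359). Rrm2, the S-phase subunit of ribonucleotide reductase, was at 7.97, 8.92 and 9.83 CPM in the WT libraries and 9.06, 15.2 and 15.04 CPM in KO, with KO replicate 1 inside the WT range (0.56 ± 0.25). Tyms, which makes thymidylate, was level in 5 libraries, from 6.32 to 6.43 CPM, and at 10.3 CPM in KO replicate 3 (0.28 ± 0.29). The pseudogenes Pcna-ps2 and Ccnb2-ps held 5 to 11 and 4 to 29 counts per library.

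The S-phase and mitotic genes were then set side by side. The S-phase median lay 0.44 below the mitotic median on the log2 difference scale, and 2 of 11 S-phase and 7 of 21 mitotic genes had a fitted difference of more than 2-fold. Per library, the mean log2 level (log2 of CPM + 0.5) of the S-phase genes exceeded that of the mitotic genes by 1.59, 1.51 and 1.61 in WT replicates 1 to 3 and by 1.49, 1.33 and 1.25 in KO replicates 1 to 3, without overlap. The summed CPM of the S-phase genes was 2.36, 1.97 and 2.16 times that of the mitotic genes in WT and 1.98, 1.56 and 1.48 times in KO, where KO replicate 1 lay inside the WT range. The difference of medians carries no test. It was -0.26 without WT replicate 3, and the S-phase median itself was 0.27 without KO replicate 3.

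**Figure D4:**
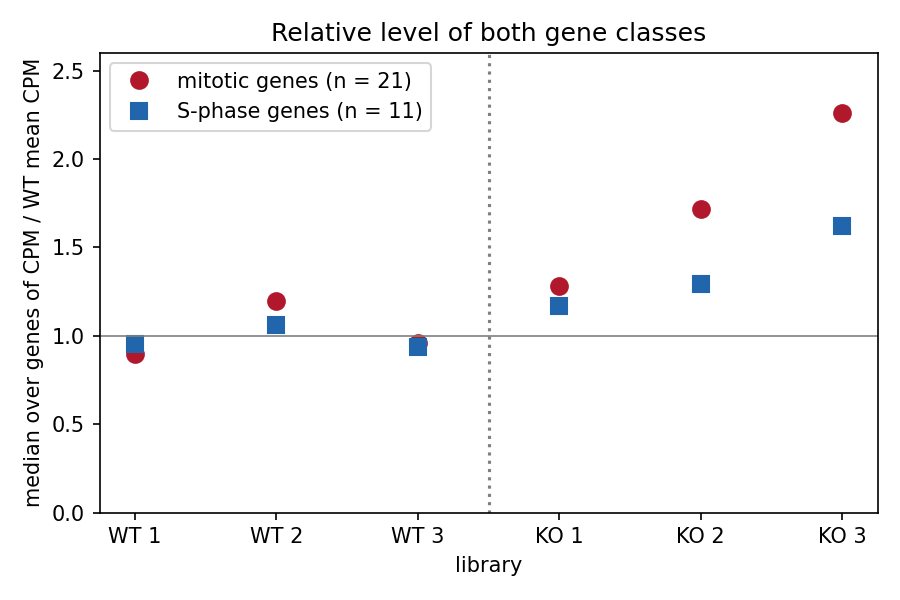
Median over the 21 mitotic (red circles) and 11 S-phase genes (blue squares) of each gene's CPM divided by its mean in the WT libraries (vertical axis), for the 6 libraries. KO replicates 2 and 3 show the classes apart, at 1.72 and 2.26 for the mitotic and 1.29 and 1.62 for the S-phase genes.

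The classes also differed in level. The median WT level was 4.04 CPM for the mitotic and 23.1 CPM for the S-phase genes, and the median SE of the log2 difference was 0.38 and 0.21. Across the 32 genes, which share libraries, the log2 difference had a Spearman rho of -0.52 and a Pearson r of -0.52 with the mean log2 level of both groups, given as a description. Within the 21 mitotic genes these were -0.36 and -0.18, and within the 11 S-phase genes -0.51 and -0.72. The part of level in the difference between the classes was not tested. At WT means of 21.1, 18.2 and 23.1 CPM, mitotic Top2a had a log2 difference of 1.04, S-phase Mcm5 of 1.03 and S-phase Mcm6 of 0.29. At WT means from 25.7 to 37.0 CPM, mitotic Mki67 had 0.61. In that span S-phase Mcm2, Mcm3, Mcm7 and Mcm4 had 0.41, 0.33, 0.50 and 0.34. Of the S-phase genes under 10 CPM in WT, Tyms had 0.28, Rrm2 0.56, Cdc45 0.71 and Gins2 1.97, a range that spans that of the mitotic genes other than Aurka.

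**Figure D5:**
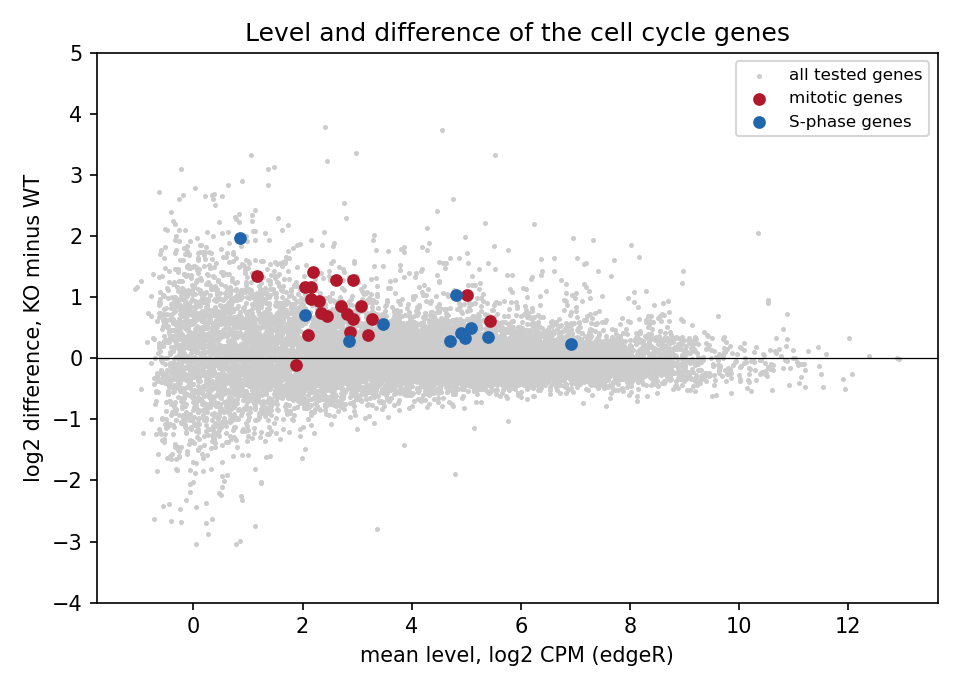
Log2 difference between KO and WT (vertical axis) against mean level (horizontal axis, log2 CPM) for all 15191 tested genes in grey, the mitotic genes in red and the S-phase genes in blue. The members other than Aurka lie on the upper side of the cloud and not outside it. The mitotic genes sit at lower levels, with a median of 4.04 CPM in WT against 23.1 CPM.

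Wider cell cycle lists of 143 genes, 142 of them tested, were read in the same fit. Over all of them 1 was called higher and 0 lower by edgeR, where 1.12% of all genes were called higher, so the count of calls was not above the background. At an unadjusted p under 0.05, 29 were higher and 0 lower, against 8.29% and 6.33% of all genes, and the median log2 difference was 0.31. The called gene was Uhrf1, which keeps DNA methylation in place behind the replication fork, at 5.97, 7.04 and 8.72 CPM in the WT libraries and 11.4, 16.0 and 20.9 CPM in KO (log2 fold change 1.15 ± 0.26, edgeR adjusted p = 0.0465). The call of the Uhrf1 log2 fold change was lost by limma-voom (adjusted p = 0.0741), with an offset for length and GC content (0.0551), and with 1 library left out, namely WT replicate 1 (0.191), 2 (0.157) or 3 (0.0512) or KO replicate 2 (0.181) or 3 (0.215).

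The replication fork list that holds Uhrf1 had 26 genes, with 23 on the higher side and a median of 0.37. Of the 18 wider genes of origin licensing and initiation 8 were on the higher side, with a median of -0.01. That list leaves out the 8 members with such roles (Mcm2 to Mcm7, Cdc45 and Gins2), which were all on the higher side, from 0.29 to 1.97, and the difference between the lists was not tested. The 2 wider genes with the smallest p were Mcm10, which acts in starting replication from the loaded helicase (1.55 ± 0.46, edgeR adjusted p = 0.126), and Cdc6, which helps to load it (1.37 ± 0.56, edgeR adjusted p = 0.269). Of the 13 tested cyclins, CDKs and CDC25 phosphatases of G1 and S, 10 were on the higher side with a median of 0.19. Among them Ccnd1, the cyclin of G1, was at 149 ± 22.0 and 194 ± 33.0 CPM (SD, n = 3 per group), and Ccne1, the cyclin of S-phase entry, had a log2 difference of 1.60 ± 0.63 SE.

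On the mitotic side, all 17 genes of spindle motors and cytokinesis were on the higher side, with a median of 0.62. Kif2c, a microtubule depolymerase, was at 1.17, 1.11 and 0.787 CPM in the WT libraries and 2.38, 3.34 and 6.09 CPM in KO (log2 difference 1.94 ± 0.53, edgeR adjusted p = 0.0921), and Kif22, a chromosome-arm motor, had a difference of 1.49 ± 0.49. Of 17 kinetochore and checkpoint genes 14 were on the higher side, with a median of 0.74. Cdca8 (1.53 ± 0.43, edgeR adjusted p = 0.103) and Incenp (0.62 ± 0.19, edgeR adjusted p = 0.133), the partners of Aurkb and Birc5 in the passenger complex, had the smallest p. Of 13 condensin, cohesin and APC/C regulators 11 were on the higher side, with a median of 0.48, among them Cdca5 (sororin, 1.92 ± 0.61) and the ubiquitin-conjugating enzyme Ube2s (0.48 ± 0.14).

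Regulators of the programme were read as 3 lists. Of 18 genes of E2F factors, pocket proteins, DREAM and FOXM1, 13 were on the higher side with a median of 0.12. Rbl1, a pocket protein, had a log2 difference of 0.41 ± 0.16 and Mybl2, which encodes B-MYB, of 1.14 ± 0.45, neither passing (edgeR adjusted p = 0.251 and 0.255). The 7 CDK inhibitors had a median of 0.01, with 4 on the higher and 3 on the lower side. Cdkn1c was at 74.1 ± 5.50 CPM in the WT libraries and 63.2 ± 6.28 CPM in KO, and Cdkn2c at 43.6 ± 5.86 and 36.7 ± 2.73 CPM (SD, n = 3 per group, edgeR adjusted p = 0.408 and 0.462). In the list of DNA damage checkpoint and p53 genes, 11 of 13 were on the higher side with a median of 0.23, and the repair gene Brca1 had a difference of 1.02 ± 0.45.

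Markers of cells that could carry these transcripts were read in the same libraries. All 5 pan-leukocyte genes were on the higher side in KO and 3 rose (Coro1a, Cd52 and Cd53), where 1.12% of all genes were called higher. Coro1a rose from 202 ± 6.34 to 307 ± 59.4 CPM. The summed level of the 5 genes was 975.3 to 1238 CPM in the WT libraries and 1273 to 1648 CPM in KO libraries. Of the 8 monocyte and macrophage genes 3 rose (Ly6c2, Ccr2 and Fcgr1), and their sum was 358.9 to 507.7 CPM in the WT libraries and 615.2 to 680.9 CPM in KO. Of the 6 mature neutrophil genes 5 were on the higher side and 1 on the lower, and 2 rose (S100a8 and S100a9). The 6 genes summed to 162.5 to 264.2 CPM in the WT libraries and to 311.0, 443.2 and 481.2 CPM in KO replicates 1 to 3. The called S100a9 was the largest part of these sums, at 96.5 ± 19.4 and 206 ± 53.2 CPM in WT and KO (SD, n = 3 per group). Csf3r, at 73.8 ± 33.2 and 100 ± 11.5 CPM, overlapped between groups (edgeR adjusted p = 0.636). None of the 7 T cell and 7 B and plasma cell genes passed by edgeR, where 3 and 4 were higher at an unadjusted p under 0.05, against 8.29% of all genes. T cell sums were 108.3 to 148.5 CPM in the WT libraries and 144.5, 189.8 and 200.5 CPM in KO replicates 1 to 3, and those of B and plasma cells 293.3 to 356.6 CPM and 445.7, 390.1 and 477.7 CPM. Stromal lists had more genes on the lower side than on the higher, where 51.0% of all tested genes were on the higher side. Of 7 fibroblast and smooth muscle genes 5 were on the lower side, with a median log2 difference of -0.26, 0 called by edgeR and 2 lower at an unadjusted p under 0.05, against 6.33% of all genes. They summed to 2875 to 3211 CPM in the WT libraries and to 2057, 2660 and 3121 CPM in KO replicates 1 to 3. Of 6 endothelial genes 4 were on the lower side, with a median of -0.11, 0 called, and 1 higher and 1 lower at an unadjusted p under 0.05. Their sum was 4792 to 6049 CPM in the WT libraries and 4566 to 5756 CPM in KO, so the sums of both stromal lists overlapped between groups. The part of these cells in the cell cycle levels was not tested.

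Of 10 keratin and epithelial genes that carcinoma cells can express 7 had enough counts to test, and none of the 7 passed by edgeR (0 at an unadjusted p under 0.05). The 10 genes summed to 702.3 to 887.7 CPM in the WT libraries and 791.4 to 853.0 CPM in KO. Krt7, Krt8 and Cdh1, the most abundant, are also genes of normal lung epithelium, while Krt6a had 0 counts in all 6 libraries and Krt14 and Krt17 failed the low count filter, so the amount of tumour tissue is not read from this list. Of 7 neutrophil precursor genes, whose cells divide, 4 failed the filter, and the list summed to 14.2 to 29.7 CPM in the WT libraries and 8.42 to 17.0 CPM in KO. Erythroid genes summed to 162.7 to 193.2 CPM in the WT libraries and to 201.1, 155.9 and 332.3 CPM in KO replicates 1 to 3. KO replicate 3, the highest library for 25 members, was thus also the highest for the erythroid, T cell and mature neutrophil sums. It was also the highest for the B and plasma cell sum, whose largest part was Xbp1 (213.1, 222.6 and 261.8 CPM in KO replicates 1 to 3). In the same libraries Cd79a was at 62.3, 42.0 and 50.3 CPM, highest in replicate 1, and Jchain at 43.0, 48.8 and 63.6 CPM. The pan-leukocyte sum (1273, 1648 and 1630 CPM in KO replicates 1 to 3) was highest in KO replicate 2. So was the monocyte and macrophage sum (615.2, 680.9 and 652.3 CPM), whose genes differed in order. Chil3, its most abundant gene, was highest in KO replicate 1, at 252.6, 214.4 and 165.2 CPM in KO replicates 1 to 3. Csf1r was at 147.4, 177.1 and 191.6 CPM and Cd68 at 79.5, 105.5 and 75.8 CPM. Of the KO libraries, replicate 1 was lowest and replicate 3 highest for the T cell, mature neutrophil, and fibroblast and smooth muscle sums. The median member and the neutrophil precursor sum had the same order. In the precursor list Ltf was at 3.02, 13.8 and 14.3 CPM in KO replicates 1 to 3. Ngp ran the other way, at 3.28, 1.83 and 0 CPM, and Prtn3 was at 0.964, 0 and 1.58 CPM. The B and plasma cell and erythroid sums were lowest in KO replicate 2. Among KO libraries, the endothelial and the keratin and epithelial sums were highest in replicate 1. The part of blood RNA in the members' values was not tested.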

How the data were processed

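Whole-lung RNA was measured in 6 libraries, 3 per group. The deposited files hold raw counts of reads for each Ensembl gene, without normalization by the authors. STAR 2.5, HTSeq 0.6.1 and the build mm10 (GRCm38) are named per the submitters' processing notes. The annotation release, strand and counting mode were not found in the sources used here. Symbols, exonic lengths and coordinates (from 1) came from GENCODE M21 (GRCm38) by identifier, which matched 34490 of 35275 rows.

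Groups were compared with edgeR 4.0.16 in R 4.3.3 (TMM, filterByExpr with a minimum count of 10, robust glmQLFit, group as the sole term), two-sided, with Benjamini-Hochberg adjustment over 15191 genes and a threshold of 0.05. Standard errors are the difference divided by the square root of F. DESeq2 1.42.0, limma 3.58.1 (voom), other scalings, filters, thresholds, a length and GC offset (spline df 5), a replicate block and leaving out each library were alternatives. The procedure was checked on simulated counts. Members, lists and motifs were chosen with earlier results of these data known. All members were named; of each wider list, the genes that passed or else the 2 with the smallest p, and of the marker lists at most 3 by level. A gene that this rule names is not reported here. Other marker genes named (Cd52, Cd53, Ly6c2, Ccr2, Fcgr1, Krt6a, Krt14 and Krt17) were chosen after their values were seen.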

Additional observations from a re-analysis of the deposited data

How the results depend on the processing

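The members' calls depended on the setting and the direction of their differences hardly did. Against 0 called members, 6 were called higher with no filter on low counts, 5 by DESeq2, 3 at a threshold of 0.1, and 2 each with the replicate block and with the block and the length and GC offset together. None was called by edgeR with the other scalings, the stricter filter, robust=FALSE, the offset alone or a threshold of 0.01, nor by limma-voom. With 1 library left out, 0 to 5 members were called higher and 0 lower. The S-phase minus mitotic median ran from -0.55 to -0.26. With 1 library left out, the Aurka log2 fold change ran from -0.25 to 0.12, reversing without WT replicate 3, and the Prc1 log2 fold change from -0.073 to 0.56, reversing without KO replicate 3. The other 30 members kept their sign in all alternatives. The cause was not tested.

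Of the wider cell cycle genes, where 1 was called higher, 8 were called with no filter, 7 by DESeq2 and 4 at a threshold of 0.1. In these settings 2.66%, 2.42% and 2.07% of all genes were called higher. With the block 2 were called, and with block and offset 2, against 2.03% and 1.53% of all genes. By limma-voom, with the offset alone and at a threshold of 0.01 there were 0, against 1.01%, 0.658% and 0.151%. Leaving out 1 library gave 0 to 6, where 0.141% to 2.58% of all genes were called higher. The number of all genes called was 221, and it was 803 with no filter, 598 by DESeq2, 405 with the replicate block, 117 with the offset, 475 and 25 at thresholds of 0.1 and 0.01, and ran from 24 to 578 with 1 library left out. Removing the filter also changes the set of genes tested, from 15191 to 21769. Equal replicate numbers gave correlations of 0.017, -0.032 and 0.0040 between the deviations from the group means, so the numbers were not treated as pairs. Gins2 and Plk1 had the lowest WT levels of the members (0.674 and 1.19 CPM) and the largest SE, 0.62 and 0.56. The part of low counts in these SE was not tested.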

Other observations

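The MCM subunits did not keep 1 ratio to each other, a pattern chosen after the values were seen. Mcm5 stood at 0.560, 0.872 and 0.478 times the mean CPM of the other 5 MCM genes in WT replicates 1 to 3 and at 0.787, 1.10 and 1.11 times in KO replicates 1 to 3, with overlap between WT replicate 2 and KO replicate 1. Mcm6 stood at 0.851, 0.852 and 0.842 times in WT and 0.640, 0.713 and 0.815 times in KO, without overlap. The other 5 genes include Mcm5 here, so a higher Mcm5 level lowers the Mcm6 ratio. The separation of Mcm6 is therefore not independent of Mcm5, and a ratio without Mcm5 was not computed. Mcm7 stayed between 1.01 and 1.14 times in all 6 libraries.

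Within GINS, likewise chosen after the values were seen, Gins2 had the largest difference of the members, while the other subunits Gins1, Gins3 and Gins4 had log2 differences of -0.06 ± 0.52, -0.04 ± 0.39 and -0.09 ± 0.18 SE.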
